A study of Mus musculus with 15 samples.

Results

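Livers of mice in late pregnancy that carried a p21-expressing virus were compared with livers of non-pregnant (NP) mice that carried the empty virus. The comparison takes 6 of the 15 bulk RNA-seq libraries of the series, 3 AAV8-p21 livers at 16 days post-coitum (dpc) and 3 AAV8-null NP livers. They were chosen by the columns of the count table. All mice were wild-type females, labelled C57BL/6 and given as C57BL/6N in the study's methods. Their age is 8 to 14 weeks by the methods, while the study's reporting summary gives a higher upper limit. Each had received a tail vein injection of adeno-associated virus serotype 8, which in pregnant mice came at least 1 week before mating. In AAV8-p21 the mouse p21 coding sequence was driven by the thyroxine-binding globulin (TBG) promoter, which is active in hepatocytes, and AAV8-null carried the same promoter with no insert. No NP liver with AAV8-p21 was analysed here, so pregnancy and the virus insert both differ between the groups and their parts cannot be told apart from these 6 livers alone. AAV8-null livers at 8 dpc and 16 dpc, 3 each, were therefore set beside them. Nothing in the labels links a liver to a cage or day. The p-values of the main test set differences against the spread within groups over all 15 libraries, AAV8-p21 livers at 8 dpc included.

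The maternal liver enlarges in pregnancy and makes most plasma proteins, bile acids and drug-metabolizing enzymes. It receives placental lactogen and growth hormone through the receptors Prlr and Ghr, which signal through JAK2 and STAT5 and induce feedback inhibitors such as Cish and Socs2. p21, the product of Cdkn1a, binds complexes of cyclins and cyclin-dependent kinases (CDKs) and blocks entry into the cell cycle.

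The p21 insert was amplified with the primer pair printed here, because it defines what the virus adds to the Cdkn1a read count. Capitals mark the start codon in the forward primer and the complement of the stop codon in the reverse primer.
p21 forward primer: accATGtccaatcctggtgatg
p21 reverse primer: TCAgggttttctcttgcagaag
All 22 bases of the forward primer matched the Cdkn1a-201 transcript, in which the start codon lay at base 105 of 1913 and the stop codon ended at base 584. The insert thus spans the 480 bases from start to stop codon, and its reads and those of the mouse's own gene fall in 1 count.

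3 promoters are shown because their genes lie in the prolactin and growth hormone pathway or the secreted and bile acid groups described here, and each holds the STAT letters TTCNNNGAA, which read the same on both strands. Each runs from 250 bases before to 50 after the RefSeq gene start in build GRCm38.p6, with the STAT letters in capitals. Cish lies at chr9:107296409-107296708 on the plus strand, Itih4 at chr14:30886226-30886525 on the plus strand and Slc10a1 at chr12:80968656-80968955 on the minus strand.
Cish: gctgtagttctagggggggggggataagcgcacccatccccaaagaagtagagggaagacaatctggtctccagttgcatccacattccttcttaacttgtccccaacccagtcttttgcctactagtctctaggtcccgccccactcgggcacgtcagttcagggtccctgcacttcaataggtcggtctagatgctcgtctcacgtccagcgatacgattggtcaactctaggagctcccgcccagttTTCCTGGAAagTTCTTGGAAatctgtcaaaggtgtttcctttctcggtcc
Itih4: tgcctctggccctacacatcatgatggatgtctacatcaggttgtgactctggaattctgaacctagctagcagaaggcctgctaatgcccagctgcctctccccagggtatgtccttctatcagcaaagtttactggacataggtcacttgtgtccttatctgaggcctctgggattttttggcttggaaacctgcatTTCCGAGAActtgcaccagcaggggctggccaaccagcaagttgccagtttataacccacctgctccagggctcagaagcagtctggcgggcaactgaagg
Slc10a1: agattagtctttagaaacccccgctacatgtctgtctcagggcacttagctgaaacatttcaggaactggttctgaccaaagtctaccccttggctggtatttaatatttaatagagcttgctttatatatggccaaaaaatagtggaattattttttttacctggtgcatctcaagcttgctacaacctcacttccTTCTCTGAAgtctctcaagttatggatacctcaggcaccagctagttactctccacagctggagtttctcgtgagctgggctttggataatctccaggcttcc
The matches began at bases 1 and 12 after the start in Cish, 51 bases before it in Itih4 and 53 bases before it in Slc10a1. The STAT letters stood in 12 of 209 promoters of genes higher in AAV8-p21 livers at 16 dpc (5.74%), in 9 of 89 of those lower (10.1%) and in 693 of 9763 promoters of all genes tested (7.1%). The TATA box letters TATAAA, searched on both strands, stood in 12.9%, 16.9% and 7.44% of the same promoters. A match describes letters in this window and not a bound site.

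The libraries held 12280709 to 17615185 counts, and levels are given as CPM, a gene's count relative to the library total after scaling by the trimmed mean of M-values (TMM). Albumin took 10.4% ± 0.58 of counts in NP livers and 21.1% ± 0.932 in AAV8-p21 livers at 16 dpc (SD, n = 3 each). A single library stood apart in each group. NP replicate 1 correlated at 0.952 and 0.950 with the other NP libraries, which correlated at 0.989, and its clock gene Dbp was at 5.68 against 86.3 and 58 CPM. Library 4 of the AAV8-p21 livers at 16 dpc, numbered as in the table, correlated at 0.956 and 0.965 with libraries 1 and 3, which correlated at 0.985. Its fasting hormone gene Fgf21 was at 54.8 against 1.7 and 6.61 CPM and its lipogenic gene Thrsp at 12.2 against 873 and 454 CPM. The main counts of DEGs are therefore also given without these libraries. Defining hepatocyte markers were abundant in all livers and those of placenta and decidua summed to at most 0.534 CPM in any library. In bulk liver, fewer cells of a type and less RNA per cell cannot be told apart.

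Cdkn1a (ENSMUSG00000023067, chr17:29090976-29100727, GRCm38) was higher in every AAV8-p21 liver than in every NP liver. Its level was 33.7, 5.12 and 3.29 CPM in NP replicates 1 to 3 and 1664, 815 and 1093 CPM in AAV8-p21 libraries 1, 3 and 4. The log2 fold change was 6.41 (SE 0.81, adjusted p = 0.00042, edgeR's quasi-likelihood test). An exact two-sided permutation test of 3 against 3 livers gave p = 0.1, the smallest it allows. With the empty virus the gene was also higher in late pregnancy. AAV8-null livers at 16 dpc held 64.4, 127 and 59.8 CPM, a log2 fold change of 2.58 over the same NP livers (adjusted p = 0.0358, edgeR). The highest NP value came from replicate 1, the library that stood apart, and without it the log2 fold change with AAV8-p21 was 8.14 (5.94 to 6.62 without each of the other 5 libraries).

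Genes were called differentially expressed (DEGs) at an adjusted p under 0.05 and a log2 fold change beyond 1. Of 12172 genes tested, 374 (3.07%) were DEGs between AAV8-p21 livers at 16 dpc and NP livers, 259 higher (2.13%) and 115 lower (0.945%) in late pregnancy. Of the higher genes 34 exceeded a log2 fold change of 4, 71 lay between 2 and 4, and 154 between 1 and 2. The lower genes fell into 10, 42 and 63 over the same sizes. In 373 of the 374 the 3 livers of one group all lay outside the range of the other, as they did in 20.2% of all genes tested. The median log2 fold change of all genes was -0.04. Without NP replicate 1 and AAV8-p21 library 4 there were 395 DEGs, 293 higher and 102 lower, of which 247 were shared with the fit of all libraries. Leaving out any single library of the 6 gave 192 to 403, with the fewest without NP replicate 2 (192), NP replicate 3 (211), AAV8-p21 library 3 (215) and AAV8-p21 library 1 (248).

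Genes that differed between late and mid pregnancy with the empty virus were taken from livers outside this comparison and followed in it. The 3 AAV8-null livers of 16 dpc and the 3 of 8 dpc share no library with it, although all 15 were fitted in one model with a common dispersion. Between these stages 658 genes were DEGs (5.41% of those tested), 308 higher (2.53%) and 350 lower (2.88%) at 16 dpc. Both stages are pregnant, so these are differences between stages and not from the NP state. Of 20 mitosis genes 11 were DEGs lower at 16 dpc than at 8 dpc (median -3.27). In AAV8-null 16 dpc over NP livers 0 of them were lower DEGs (median -0.24), against 2.06% of all genes. Of the 308, 156 (50.6%) were DEGs higher in AAV8-p21 livers than in NP livers, against 2.13% of all genes, and 296 (96.1%) had a positive log2 fold change, against 45.8% of all genes. Of the 350, 57 (16.3%) were DEGs lower in AAV8-p21 livers, against 0.945%, and 313 (89.4%) had a negative log2 fold change, against 54.2%. Median log2 fold changes were 1.74 in the AAV8-null comparison and 1.37 in the AAV8-p21 comparison for the 308 genes, and -1.70 and -0.70 for the 350. The genes were chosen by their size in the AAV8-null comparison, and the baselines, 8 dpc and NP, differ. These medians therefore do not measure whether a change was weaker with AAV8-p21. The 3 livers of each group did not overlap for 233 of the 308 (75.6%) and 168 of the 350 (48%), against 9.95% and 10.3% of all genes in those directions.

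1 of these 658 genes was a DEG in the opposite direction, the cyclin gene Ccnd1, described further on. 12 genes that were higher at 16 dpc with the empty virus had a log2 fold change of 0 or less in AAV8-p21 livers, and none of them was a DEG there. They were chosen after their values were seen and include Acat1, Arhgef10, Arl4a, F2r, Flt4, Hivep2, Nrp1, Pdk4, Plin5, Sh3pxd2b and Tmem132e. The counts depend on the libraries that stood apart. Without NP replicate 1 and AAV8-p21 library 4, 121 of the 308 (39.3%, background 2.37%) and 41 of the 350 (11.7%, background 0.825%) were DEGs in the same direction. Without AAV8-p21 library 4 alone the 57 lower DEGs became 35 (10%, background 0.614%). Read the other way, 156 of the 259 genes higher in AAV8-p21 livers (60.2%) and 57 of the 115 lower (49.6%) were DEGs between AAV8-null 16 dpc and 8 dpc.

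**Figure D1:**
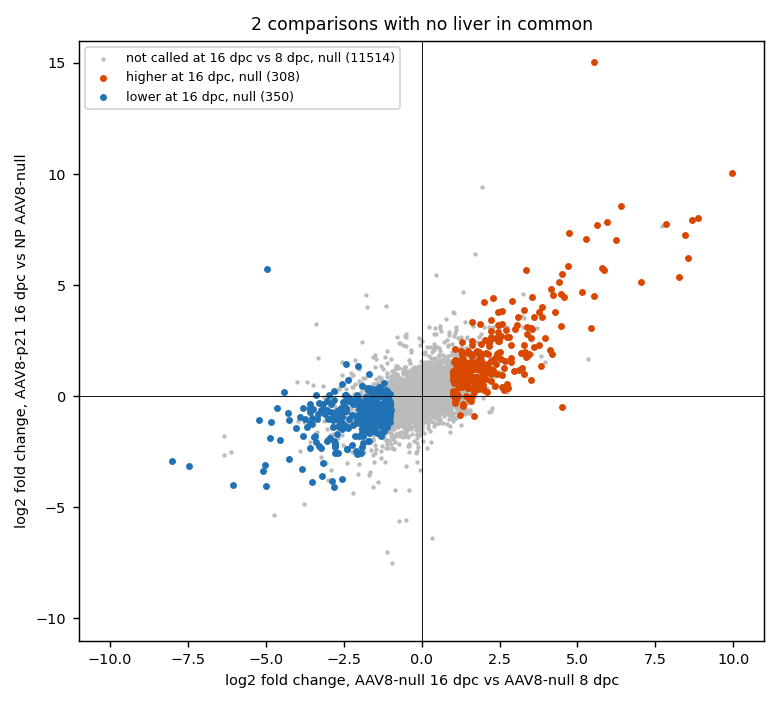
Each point is 1 of the 12172 genes tested, with its log2 fold change between AAV8-null livers at 16 dpc and 8 dpc on the x axis and between AAV8-p21 livers at 16 dpc and NP AAV8-null livers on the y axis. Orange points are the 308 genes higher and blue points the 350 genes lower at 16 dpc with the empty virus. 296 of the orange points lie above 0 on the y axis and 313 of the blue points below it.

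The receptor genes of the pathway rose in AAV8-p21 livers, and their levels at 16 dpc overlapped between the viruses. Prlr (chr15:10177238-10349180), the prolactin receptor, was at 449.5, 217 and 249 CPM in NP livers and at 3206, 3006 and 2129 CPM in AAV8-p21 livers. Its log2 fold change was 3.19 (SE 0.34, adjusted p = 0.0001, edgeR). In AAV8-null livers at 16 dpc it was at 3331, 3133 and 2134 CPM, and AAV8-p21 minus AAV8-null at 16 dpc was -0.04 on the log2 scale (95% interval -0.71 to 0.62, unadjusted, as for all intervals given here). Ghr (chr15:3317760-3583492), the growth hormone receptor, was at 355, 283 and 383 CPM in NP livers and at 3781, 3026 and 2064 CPM in AAV8-p21 livers (log2 fold change 3.12, SE 0.35, adjusted p = 0.00014, edgeR). The difference between viruses at 16 dpc was -0.09 (-0.78 to 0.59). For both receptors the NP and AAV8-p21 livers did not overlap, and both were DEGs in every fit with 1 of the 6 libraries left out.

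Of 19 tested genes of growth hormone and prolactin signalling, 4 rose and 1 fell, against 2.13% and 0.945% of all genes, with a median log2 fold change of 0.73. Without NP replicate 1 and AAV8-p21 library 4 the numbers were 5 and 0. Cish, a feedback inhibitor of cytokine receptors, was at 10.5, 4.87 and 6.92 CPM in NP livers and at 24, 20 and 20.6 CPM in AAV8-p21 livers. Its log2 fold change was 1.54 (SE 0.31, adjusted p = 0.0121, edgeR), and it lost the call without NP replicate 2 or 3 (1.31 to 1.87 over the 6 fits). Socs2, a second inhibitor, was at 23.2, 17.2 and 10.8 CPM against 36.6, 38 and 36.7 CPM, which did not overlap but missed the threshold (1.12, adjusted p = 0.0523, edgeR), and it passed without NP replicate 1 (1.40, adjusted p = 0.0271). Igfbp1, a binding protein of insulin-like growth factors, was at 147, 117 and 90.1 CPM in NP livers and 363, 643 and 345 CPM in AAV8-p21 livers, while AAV8-null livers at 16 dpc reached 981, 1499 and 1935 CPM. Its log2 fold changes over NP were 1.93 (adjusted p = 0.0196, edgeR) and 3.64 (adjusted p = 0.00037), and AAV8-p21 minus AAV8-null was -1.71 (-2.61 to -0.81, adjusted p = 0.145), so the gap between viruses did not pass the test. Igfbp1 lost its call in AAV8-p21 livers without NP replicate 2, NP replicate 3 or AAV8-p21 library 3. The gene that fell was Bcl6, a transcriptional repressor, from 9.42, 20 and 12.5 CPM to 3.75, 4 and 2.4 CPM, and of the 6 fits with 1 library left out it kept its call only in the fit without NP replicate 1 (-2.26 to -1.70 over the fits). The same NP libraries enter both of these comparisons, so the values stand side by side and are not independent of each other.

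Genes of secreted plasma proteins were counted in lists. Of 28 coagulation and fibrinolysis genes 9 rose and 0 fell, 27 had a positive log2 fold change and the median was 0.86, against 11 and 0 with a median of 0.76 in AAV8-null livers at 16 dpc over the same NP livers. Of 20 acute-phase genes 5 rose and 1 fell (median 1.09), and of 21 albumin and plasma carrier genes 8 rose and 0 fell (median 0.75). Of all genes tested 2.13% rose and 0.945% fell with AAV8-p21. With AAV8-null 598 (4.91%) were DEGs over the same NP livers, 2.85% of genes higher and 2.06% lower. Leaving out NP replicate 1 and AAV8-p21 library 4 gave 10 and 0, 7 and 1, and 9 and 1.

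F7, coagulation factor VII, was at 85.3, 76.8 and 88.5 CPM in NP livers and 561, 430.0 and 231 CPM in AAV8-p21 livers (log2 fold change 2.28, SE 0.32, adjusted p = 0.00097, edgeR). The 3 pregnant livers lay above all NP livers, and the difference between viruses at 16 dpc was 0.24 (-0.41 to 0.89). F2, the gene of prothrombin, was at 1683, 1276 and 1458 CPM against 4289.9, 4138 and 3491 CPM, a log2 fold change of 1.43 (SE 0.21, adjusted p = 0.00122, edgeR) that lay -0.09 from that of AAV8-null livers (-0.53 to 0.34). F11, factor XI, was at 29.6, 29.6 and 36.2 CPM against 174, 135 and 105 CPM. At 16 dpc every AAV8-p21 liver lay above every AAV8-null liver in F11, which held 84.8, 83.8 and 63.1 CPM there, with a difference of 0.83 (0.33 to 1.34, adjusted p = 0.232, edgeR) that did not pass the test over all genes.

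Vwf, von Willebrand factor, is made mainly by endothelial cells. It was at 3.32, 5.18 and 5.87 CPM in NP livers, 17.5, 28.7 and 75.4 CPM in AAV8-p21 livers and 78.5, 285 and 88.5 CPM in AAV8-null livers at 16 dpc. Its log2 fold changes over NP were 3.08 (adjusted p = 0.00559, edgeR) and 4.97 (adjusted p = 0.00028), the first of them 2.27 without AAV8-p21 library 4. Of 12 other endothelial markers tested 0 were DEGs by edgeR, 1 was lower at an unadjusted p under 0.05, and DESeq2 called 0 and limma voom 1 lower. Over all genes the lower shares were 0.945% by edgeR, 7.34% unadjusted, 1.1% by DESeq2 and 2.89% by limma voom. Their summed level was 246.7 to 428 CPM in NP livers and 282.3 to 340.5 CPM in AAV8-p21 livers.

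Cp, the gene of the copper carrier ceruloplasmin, had one of the smallest adjusted p-values. It was at 1133, 868 and 997 CPM in NP livers and 8135, 8396 and 6778 CPM in AAV8-p21 livers, with a log2 fold change of 2.96 (SE 0.23, adjusted p = 8e-06, edgeR) and a difference between viruses of 0.01 (-0.45 to 0.47). Itih4, an inter-alpha-trypsin inhibitor heavy chain whose promoter is printed above, was at 1447, 1128 and 1191 CPM against 10852, 13124 and 11383 CPM (3.23, SE 0.29, adjusted p = 1.9e-05, edgeR). Hpx, which binds free haem, rose by a log2 fold change of 1.54 and Itih3 by 1.54 as well. In each of these 4 genes the groups did not overlap, and each was a DEG in every fit with 1 library left out. The acute-phase gene that fell was Hamp, the iron hormone hepcidin, with a log2 fold change of -3.02 (adjusted p = 0.0316, edgeR), a call that was kept without AAV8-p21 library 4 and lost without any other of the 6 libraries (-3.83 to -2.59). Without NP replicate 1 alone the acute-phase list held 9 rises and 0 falls.

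Serpina6, the gene of corticosteroid-binding globulin, was at 583, 256 and 340.3 CPM in NP livers and 31265, 23399 and 6678 CPM in AAV8-p21 livers. AAV8-null livers at 16 dpc held 27151, 15817 and 6195 CPM. The log2 fold change over NP was 5.70 (SE 0.81, adjusted p = 0.00109, edgeR), and the viruses differed by 0.32 (-1.10 to 1.74), an interval wide enough to hold a change of more than 1 in either direction. Serpina1e, of the alpha-1-antitrypsin family, rose by 3.79 (adjusted p = 0.0012, edgeR), and reads that fit several of its near-identical copies were not counted. Ahsg, or fetuin A, went from 8402, 8081 and 7689 CPM to 23657, 21295 and 22863 CPM, and Pzp, a broad protease inhibitor of plasma, from 3351, 3655 and 4097 CPM to 10829, 12828 and 10222 CPM. Alb, albumin, rose by 1.58 (SE 0.24, adjusted p = 0.00189, edgeR).

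Among 26 complement genes 4 rose and 3 fell, against 2.13% and 0.945% of all genes. Cfi, the protease that degrades the central complement component, was at 622, 455 and 557 CPM in NP livers and 1497, 1609.7 and 1336 CPM in AAV8-p21 livers, 1.44 on the log2 scale (SE 0.20, adjusted p = 0.00102, edgeR). C4bp, its cofactor, rose by 1.40 (adjusted p = 0.00342, edgeR). C9, the pore-forming component, fell from 215, 133 and 204 CPM to 37.6, 65.3 and 44.9 CPM (-1.90, adjusted p = 0.0136, edgeR), a call lost without AAV8-p21 library 1 (-1.74, adjusted p = 0.0658) and without both libraries that stood apart (-1.71, adjusted p = 0.0761). In AAV8-null livers at 16 dpc C9 was lower still, at 15.1, 7.83 and 12.3 CPM, and AAV8-p21 minus AAV8-null was 2.07 (1.22 to 2.92, adjusted p = 0.0628, edgeR). The other 2 genes that fell, C1s2 and C1rb, are neighbours in the genome and are described with their region.

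**Figure D2:**
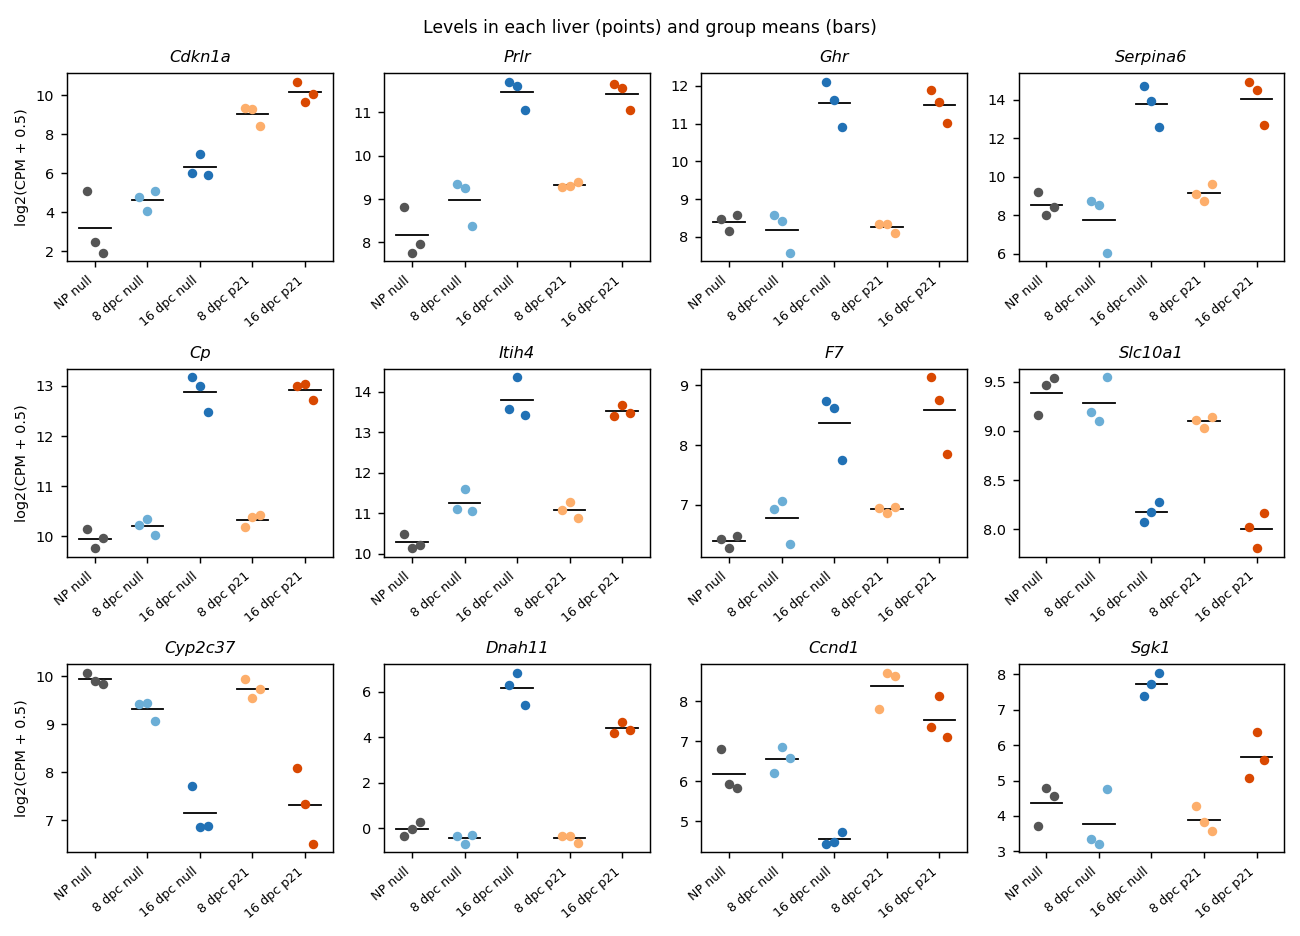
Each panel plots log2(CPM + 0.5) of 1 gene in every liver (points) with the group mean (bar), for the 5 groups of the series. For Prlr, Ghr, Cp and Itih4 the AAV8-p21 livers at 16 dpc stand beside the AAV8-null livers at 16 dpc and above the NP livers, while for Ccnd1 they stand above both.

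A few genes of bile acid handling fell. Of 21 tested, 4 fell and 0 rose, against 0.945% and 2.13% of all genes, and 5 of the 17 others had a positive log2 fold change. The median log2 fold change was -0.53. In AAV8-null livers at 16 dpc, where 5 fell and 0 rose against 2.06% and 2.85% of all genes, it was -0.50. Slc10a1, which takes up bile acids from portal blood, was at 571, 705 and 741 CPM in NP livers and 260.1, 224 and 287 CPM in AAV8-p21 livers. The log2 fold change was -1.39 (SE 0.18, adjusted p = 0.00058, edgeR) and the viruses differed by -0.17 (-0.56 to 0.21). Abcc3, which exports conjugated bile acids to blood, was at 223, 348 and 354 CPM against 15.2, 29.7 and 69.4 CPM, a log2 fold change of -3.02 (SE 0.45, adjusted p = 0.00146, edgeR) that was -3.78 without AAV8-p21 library 4. In both genes every pregnant liver lay below every NP liver. Slco1b2, an uptake carrier, fell by 1.29 and Cyp39a1, an oxysterol hydroxylase, fell by 2.46 on the log2 scale, and these calls were lost without most single libraries (kept in 1 and 2 of 6 fits).

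Cyp7a1, the rate-limiting enzyme of bile acid synthesis, was named after its values were seen. It was at 72.5, 105 and 211 CPM in NP livers and 252, 187 and 45.2 CPM in AAV8-p21 livers, with a log2 fold change of 0.32 (adjusted p = 0.893, edgeR), and the groups overlapped. In AAV8-null livers at 16 dpc it was at 32.2, 5.75 and 7.65 CPM, below all NP livers (-3.09, adjusted p = 0.0295, edgeR). AAV8-p21 minus AAV8-null was 3.41 (1.71 to 5.11), which did not pass the test over all genes (adjusted p = 0.122, edgeR).

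Drug-metabolizing enzymes moved in both directions. Of 39 cytochrome P450 genes of families 1 to 3, 3 rose and 4 fell (median -0.03), against 2.13% and 0.945% of all genes. In AAV8-null livers at 16 dpc 2 rose and 9 fell (median -0.55), against 2.85% and 2.06% of all genes in that comparison. Without NP replicate 1 and AAV8-p21 library 4 the AAV8-p21 numbers were 6 and 4 (median 0.25). Cyp2c37, which acts on arachidonic acid, was at 1078, 955 and 918 CPM in NP livers and 273, 163 and 90.6 CPM in AAV8-p21 livers (log2 fold change -2.49, SE 0.35, adjusted p = 0.00096, edgeR). Cyp2b13, a gene more active in female than male liver, was at 181, 223 and 351 CPM against 35.2, 10.8 and 11.4 CPM (-3.72, SE 0.63, adjusted p = 0.00342, edgeR), with -4.51 without AAV8-p21 library 1. Cyp2d40 rose from 60.6, 28.9 and 32.8 CPM to 297, 279 and 108 CPM (2.48, adjusted p = 0.00612, edgeR). None of these groups overlapped, and reads that fit several members of these families were not counted. Cyp2a4, which hydroxylates steroids, rose by 2.23 and Cyp3a44 by 2.96 (3.84 without NP replicate 1), calls that were lost without NP replicate 2, NP replicate 3 or AAV8-p21 library 3. Of 33 glutathione and glucuronide conjugation genes 2 rose and 0 fell, or 5 and 0 without both libraries that stood apart, led by Gstp1, at 70.1, 66.5 and 41.5 CPM against 282, 305 and 141 CPM. Of 14 sulfotransferases 1 rose and 3 fell, and without NP replicate 1 and AAV8-p21 library 4 this turned to 2 and 1. Sult1d1, which sulfates catecholamines, was at 152, 156 and 248 CPM against 66.4, 70.4 and 50.2 CPM (-1.57, SE 0.23, adjusted p = 0.0012, edgeR) and kept its call in all 6 fits.

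Genes that differ between male and female liver showed no single direction. Of 20 female-biased genes 4 rose and 1 fell (median 0.84), and of 18 male-biased genes 1 rose and 2 fell (median -0.42), against 2.13% and 0.945% of all genes. Without AAV8-p21 library 4 these became 3 and 1, and 2 and 0. The male-biased gene that rose was Susd4, a complement inhibitor, from 3.46, 2.74 and 4.68 CPM to 9.88, 13.8 and 12 CPM (1.72, SE 0.25, adjusted p = 0.00125, edgeR). Those that fell were the major urinary protein genes Mup7 and Mup20, whose calls were lost without both libraries that stood apart. Reads that fit several copies of these genes were not counted.

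In lipid metabolism, 3 of 18 lipogenic genes rose and 0 fell (median 0.75, against 0.03 in AAV8-null livers at 16 dpc), against 2.13% of all genes higher. The 3 rises were 1 without NP replicate 1 and 5 without AAV8-p21 library 4. Fads2, a fatty acid desaturase, was at 416, 565 and 688 CPM against 2394, 1901 and 1089.7 CPM (1.69, SE 0.36, adjusted p = 0.0185, edgeR). Acacb, the mitochondrial acetyl-CoA carboxylase, was at 29.5, 53.7 and 65.2 CPM against 196, 177 and 129 CPM (1.76, SE 0.37, adjusted p = 0.0157). Fads1 rose by 1.98. These 3 calls were lost without single libraries (kept in 2, 3 and 1 of 6 fits), and each was lost without AAV8-p21 library 1 and without library 3. Of 25 fatty acid oxidation and PPAR-alpha target genes 0 were DEGs in AAV8-p21 livers (median 0.03), with 1 higher and 1 lower at an unadjusted p under 0.05, 1 lower in DESeq2 and 4 lower in limma voom. Over all genes 8.68% were higher and 7.34% lower unadjusted, and 1.1% were lower in DESeq2 and 2.89% in limma voom. Without AAV8-p21 library 4 the median of the 25 was -0.51. In AAV8-null livers 3 of the 25 rose and 0 fell (median 0.68), against 2.85% and 2.06% of all genes.

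In lists of amino acid and lobule zone genes, the shares to read each count against were 2.13% rising and 0.945% falling over all genes. Cth, which makes cysteine from cystathionine, was at 438, 674 and 842 CPM against 278, 254 and 303 CPM (-1.23, SE 0.26, adjusted p = 0.0153, edgeR) and was the 1 DEG of 24 sulfur amino acid and one-carbon genes, a call kept in 2 of the 6 fits and lost without NP replicate 2 or 3 or AAV8-p21 library 1 or 3. Of 27 urea cycle and amino acid catabolism genes 0 rose and 2 fell, Hal, the histidine ammonia-lyase, by 1.36 on the log2 scale and Gls2, the liver glutaminase, by just over the size used for DEGs. AAV8-null livers at 16 dpc had 5 falls over NP livers in the same list, against 2.06% of all genes falling in that comparison. Hal and Gls2 kept their calls in 2 and 1 of the 6 fits, and the list held 0 rises and 0 falls without AAV8-p21 library 4, 0 and 1 without NP replicate 1, and 0 and 4 without both. By lobule zone, 1 of 20 pericentral genes rose, the glutamate carrier Slc1a2, from 167, 274 and 328 CPM to 682, 780.5 and 739 CPM (1.52, SE 0.22, adjusted p = 0.00132, edgeR), and 3 of 20 periportal genes rose and 3 fell. The periportal numbers were 2 and 0 without AAV8-p21 library 4, 2 and 2 without NP replicate 1, and 2 and 3 without both.

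Of 19 glucocorticoid response genes 3 rose and 0 fell in AAV8-p21 livers (median 0.85), against 2.13% and 0.945% of all genes. In AAV8-null livers 7 rose and 1 fell (median 1.17), against 2.85% and 2.06% of all genes in that comparison. With AAV8-p21, 2 rose and 0 fell without NP replicate 1 or without AAV8-p21 library 4, and 4 rose and 1 fell without both (median 1.08). The list includes H6pd, which supplies reducing power to the enzyme that regenerates active glucocorticoid. H6pd was at 295, 293 and 313 CPM in NP livers, 456, 452 and 604 CPM in AAV8-p21 livers and 1025, 759.6 and 905 CPM in AAV8-null livers at 16 dpc. Its log2 fold change in AAV8-p21 livers, 0.75, did not pass the test (adjusted p = 0.0961, edgeR) although all 3 lay above the NP livers. Sgk1, a kinase induced by glucocorticoids, was at 12.7, 27.2 and 23 CPM in NP livers and 33, 82.3 and 47.6 CPM in AAV8-p21 livers (1.37, adjusted p = 0.108, edgeR), against 168, 214 and 263 CPM with the empty virus. DESeq2 on all 15 libraries (adjusted p = 0.0275), DESeq2 on the compared groups alone (adjusted p = 0.012) and limma voom (adjusted p = 0.00977) called Sgk1 higher in AAV8-p21 than NP livers. Pdk4, which restrains pyruvate oxidation, was at 34.4, 21.8 and 52.4 CPM against 22.4, 40.9 and 14.4 CPM (-0.48, adjusted p = 0.822), and Slc45a3, a sugar transporter, at 46.1, 18.7 and 28.5 CPM against 28, 17.7 and 26.5 CPM (-0.37, adjusted p = 0.723). For Pdk4 and Slc45a3 the NP and AAV8-p21 livers overlapped. The study had named these 4 genes as lower with AAV8-p21 at 16 dpc from these same livers, so their separation by virus is no independent result. In each, every AAV8-null liver at 16 dpc lay above every AAV8-p21 liver, as in 7.02% of all genes. For none did AAV8-p21 minus AAV8-null pass the test over all genes (adjusted p of 0.0623 to 0.224, edgeR).

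**Figure D3:**
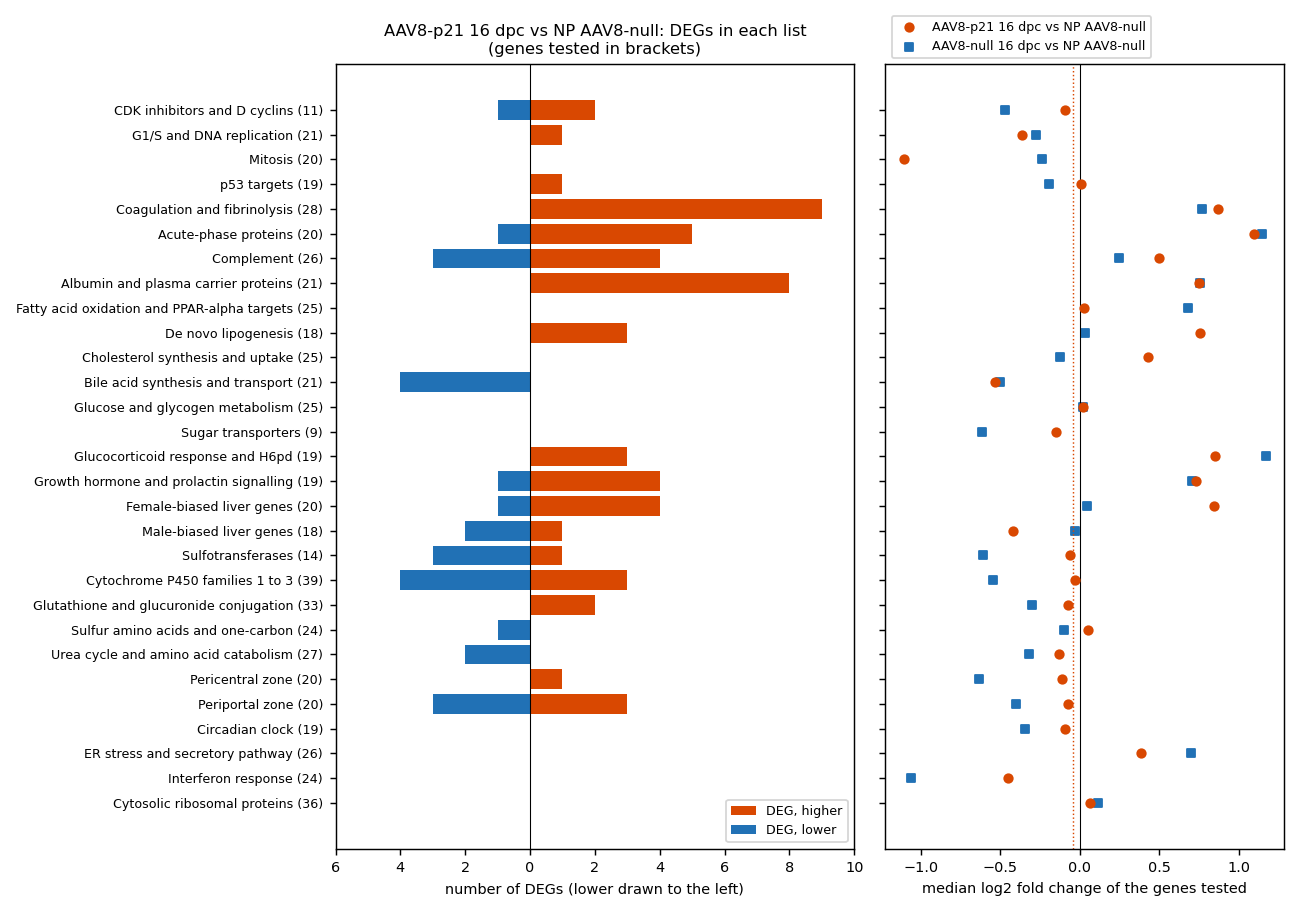
For each gene list, with the number of genes tested in brackets, bars on the left count DEGs higher (orange) and lower (blue) in AAV8-p21 livers at 16 dpc than in NP livers, and points on the right give the median log2 fold change of its genes in that comparison (orange) and in AAV8-null 16 dpc against NP livers (blue). Coagulation, acute-phase and plasma carrier lists hold 9, 5 and 8 rises.

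Of 11 CDK inhibitor and D cyclin genes 2 rose, Cdkn1a itself and Ccnd1, and 1 fell, Cdkn1c, against 2.13% and 0.945% of all genes. Cdkn1c, the p57 inhibitor, kept its call in 3 of the 6 fits and lost it without NP replicate 2, AAV8-p21 library 1 or 3, or both libraries that stood apart. Ccnd1 (chr7:144929931-144939925), cyclin D1, which activates the G1 kinases, was at 111, 60.9 and 56.1 CPM in NP livers and 163, 278 and 137 CPM in AAV8-p21 livers, with no overlap. The log2 fold change was 1.34 (SE 0.33, adjusted p = 0.0352, edgeR), a call lost without NP replicate 2, NP replicate 3 or AAV8-p21 library 1 or 3 (0.98 to 1.72 over the 6 fits). With the empty virus it fell in late pregnancy, to 21.1, 21.7 and 26.3 CPM (-1.72 against NP, adjusted p = 0.00809, edgeR), and AAV8-p21 minus AAV8-null at 16 dpc was 3.06 (2.31 to 3.82, adjusted p = 0.00168). AAV8-p21 livers at 8 dpc, a separate set, were at 225, 417 and 398 CPM.

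Ccne1, cyclin E1, which acts at the start of DNA replication, was the 1 DEG of 21 G1/S and replication genes, against 2.13% of all genes higher and 0.945% lower. It was at 0.208, 0.67 and 0.489 CPM in NP livers and 3.41, 4.29 and 2.55 CPM in AAV8-p21 livers (2.87, SE 0.50, adjusted p = 0.00481, edgeR), and AAV8-null livers at 16 dpc held 1.25, 0.916 and 1.6 CPM. Btg2, an antiproliferative p53 target, was the 1 DEG of 19 p53 targets, from 12.5, 8.96 and 9.23 CPM to 33, 44.4 and 76.9 CPM (2.33, SE 0.45, adjusted p = 0.00904, edgeR), a call lost without NP replicate 2. Of 20 mitosis genes 0 were DEGs by edgeR, DESeq2 or limma voom, and 0 had an unadjusted p under 0.05, against 8.68% of all genes higher and 7.34% lower. Their median was -1.11, but 0.21 without NP replicate 1 and 0.56 without that library and AAV8-p21 library 4, so its sign rests on NP replicate 1. The direction of the mitosis genes against NP livers could therefore not be set.

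The largest rises were of genes with few or no reads in NP livers. Cap2, an actin-binding protein gene, had 0 counts in all 3 NP livers and was at 5.37, 2.18 and 1.82 CPM in AAV8-p21 livers, at least 15.6-fold higher against a floor of 3 counts per library, with 0.802, 0.833 and 0.445 CPM in AAV8-null livers at 16 dpc. Cdh15, a cadherin gene, was at least 6.82-fold higher and stayed a DEG in every fit with 1 library left out, as did Cap2. Tdrd12, a germline piRNA factor gene, had 1 read over the 3 NP livers and 184 over the AAV8-p21 livers, a ratio of 212 with a counting interval of 37.5 to 8411. Nptx1, a neuronal pentraxin, was at 0.277, 0 and 0.0699 CPM against 38, 33.4 and 10 CPM. Sorcs3, Abca17, Serpina16, Pnpla5 and Adra2c were also among the 10 largest rises, and all 5 lost the call without NP replicate 2. Serpina16 and Pnpla5 also lost it without AAV8-p21 library 1 or 3, and Adra2c lost it without each of the 6 libraries in turn.

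Among the 10 largest falls, Adam11, a metalloprotease-like gene, was at 9.77, 7.8 and 6.57 CPM in NP livers and 0.341, 0.582 and 0.51 CPM in AAV8-p21 livers (-4.04, SE 0.53, adjusted p = 0.00055, edgeR), and the viruses differed by -0.03 (-1.50 to 1.43). Hspb1, a small heat shock protein gene, was at 32.7, 8.59 and 4.54 CPM against 0.596, 0.8 and 1.24 CPM (-4.09, SE 0.74, adjusted p = 0.00616), with a log2 fold change of -2.88 without NP replicate 1. Sult2a3, Sult2a5 and Sult2a7, near-identical sulfotransferase genes, Mup18 and Zfp454 were also among the 10. Each of these 5 lost its call without NP replicate 1 and without AAV8-p21 library 1, 3 or 4. Reads that fit several of the near-identical genes were not counted.

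Whether a change in AAV8-p21 livers also separated them from AAV8-null livers at the same stage was read from the direct difference, which shares the 3 AAV8-p21 libraries with the comparison to NP livers. Of the 374 DEGs, 93 (24.9%) had an unadjusted p under 0.05 for AAV8-p21 minus AAV8-null at 16 dpc, against 9.77% of all genes, and 141 (37.7%) had a 95% interval that lay within 1 of 0 on the log2 scale, against 59.1% of all genes. For 281 the interval covered 0. The livers of the viruses did not overlap for 91 of the 374 (24.3%), against 13.7% of all genes, 6.65% higher and 7.02% lower with AAV8-p21. Because the same AAV8-p21 livers set both values, these shares are descriptions. 6 of the 374 were among the 9 DEGs (0.0739% of genes, 0.0164% higher and 0.0575% lower with AAV8-p21) of the direct difference: Ccnd1, Gm4756, Dnah11, C1s2, C1rb and Pianp. That number was 35 without AAV8-p21 library 4 and 3 without AAV8-p21 library 1 or 3 or AAV8-null 16 dpc replicate 2.

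Dnah11, a dynein heavy chain gene of cilia, was at 0.277, 0.487 and 0.699 CPM in NP livers, 17.7, 24.8 and 19.4 CPM in AAV8-p21 livers and 78.3, 113 and 41.9 CPM in AAV8-null livers at 16 dpc. It rose over NP by a log2 fold change of 5.38 (SE 0.42, adjusted p = 8e-06, edgeR) with AAV8-p21 and 7.29 with AAV8-null, and no liver of one virus overlapped the other (-1.91, -2.58 to -1.24, adjusted p = 0.0399). Gm4756 was at 67.9, 66.3 and 74 CPM in NP livers, 37.5, 34.5 and 26 CPM in AAV8-p21 livers and 12.7, 8.16 and 8.99 CPM in AAV8-null livers at 16 dpc. It fell by 1.09 (adjusted p = 0.0229, edgeR) and by 2.80 on the log2 scale, so the fall with AAV8-p21 was the smaller (1.71, 1.17 to 2.26, adjusted p = 0.0245), and the call against NP was lost without 4 of the 6 libraries in turn. 3 further DEGs of the direct difference were not DEGs against NP. Of these, Arl4a was at 45.3, 30.3 and 38.2 CPM in NP livers and 14.7, 23.8 and 25.2 CPM in AAV8-p21 livers, and 1700017B05Rik at 7.06, 6.15 and 6.43 CPM against 6.56, 11.1 and 8.81 CPM.

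**Figure D4:**
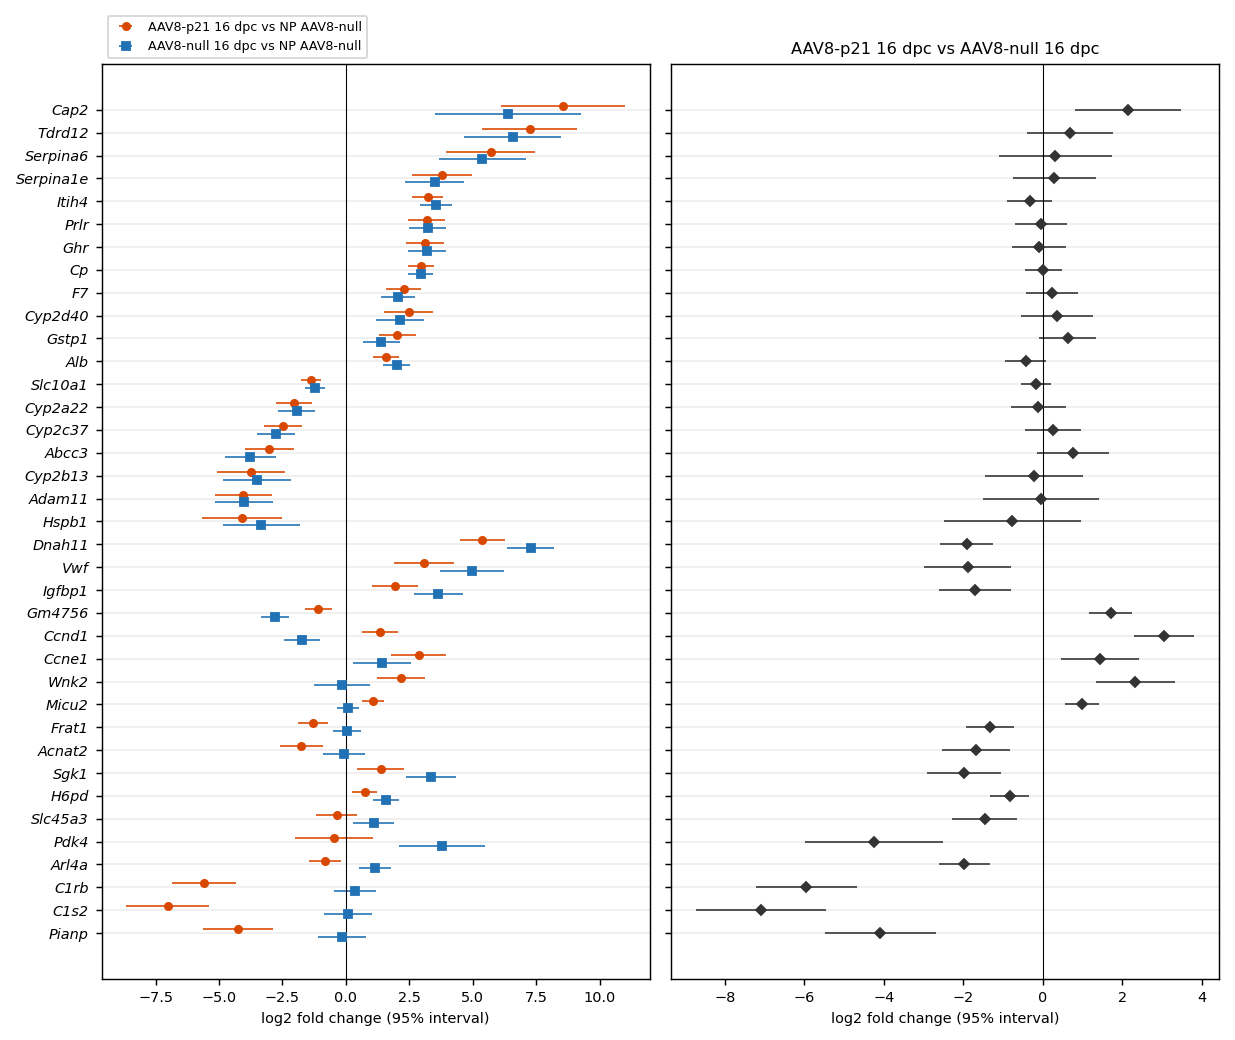
Left, log2 fold changes over NP AAV8-null livers with 95% intervals for AAV8-p21 livers at 16 dpc (orange circles) and AAV8-null livers at 16 dpc (blue squares). Right, AAV8-p21 minus AAV8-null at 16 dpc with 95% intervals. Prlr, Ghr and Cp lie near 0 on the right, at -0.04, -0.09 and 0.01, and C1s2 lies at -7.09.

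C1s2, C1rb and Pianp lie within one stretch of chromosome 6. C1s2 (chr6:124624625-124636085) and C1rb (chr6:124570294-124581171) are copies of the genes of the complement proteases C1s and C1r, and Pianp (chr6:124996694-125003096) encodes a ligand of an inhibitory immune receptor. C1s2 was at 8.73, 11.5 and 12.7 CPM in NP livers and 0.0852, 0.145 and 0 CPM in AAV8-p21 livers, or 495 reads against 3 in all, 143-fold lower (counting interval 48.8 to 697). C1rb had 292 reads against 5 (50.7-fold lower, 21.5 to 157) and Pianp 72 against 3 (20.8-fold lower, 6.85 to 103). With AAV8-null at 16 dpc, C1s2 stood at 9.18, 21.9 and 3.38 CPM. At 8 dpc, in livers outside the comparison, it was at 29, 23.8 and 22.4 CPM with AAV8-null and 0.0494, 0.0571 and 0.07 CPM with AAV8-p21, so all 6 AAV8-p21 livers lay below all 9 AAV8-null livers. All 3 genes were DEGs in every fit with 1 library left out.

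Of the 30 genes tested within 500 kb of the 5′ end of C1s2, these 3 were DEGs and 0 of the other 27 were, with log2 fold changes of -1.03 to 0.83, against 3.07% of all genes. The near-identical neighbours C1s1 and C1ra differed by -0.02 (adjusted p = 0.979, edgeR) and 0.51 (adjusted p = 0.175), and reads that fit both a gene and its copy were not counted. C1rl was higher by 0.83 (adjusted p = 0.00589), short of the size used for DEGs.

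**Figure D5:**
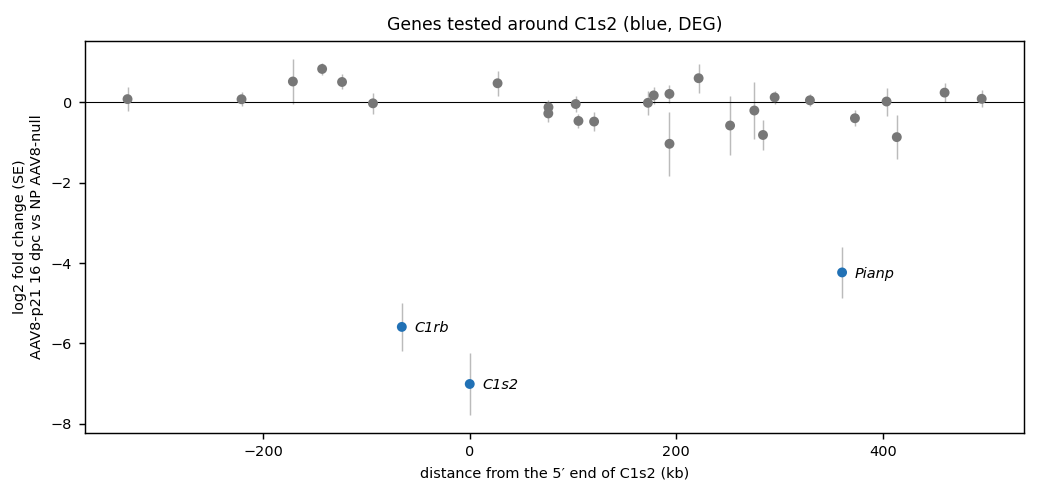
Log2 fold change (point) with its SE (bar) between AAV8-p21 livers at 16 dpc and NP AAV8-null livers for the 30 genes tested within 500 kb of the 5′ end of C1s2, by distance in kb. C1s2, C1rb and Pianp, in blue, lie below -4 while the other 27 lie between -1.03 and 0.83.

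Some DEGs of the AAV8-p21 comparison lay near 0 in AAV8-null livers, and these were named for that and have no test of the choice. Micu2, a regulator of mitochondrial calcium uptake, was at 31, 26.7 and 27.1 CPM in NP livers and 71.7, 60 and 44.7 CPM in AAV8-p21 livers, with 29.9, 29.7 and 29.4 CPM in AAV8-null livers at 16 dpc. Wnk2, a kinase, was at 0.346, 0.487 and 0.42 CPM against 2.64, 1.53 and 1.67 CPM, with 0.446, 0.167 and 0.534 CPM in AAV8-null livers. Acnat2, a fatty acid conjugating enzyme, fell from 168, 82.2 and 76.9 CPM to 15.4, 37.6 and 43.8 CPM, and Frat1, a Wnt pathway regulator, from 7.06, 3.66 and 4.06 CPM to 1.96, 1.74 and 2.33 CPM. These 4 genes and Snrpn, a splicing factor gene, each lost the call without AAV8-p21 library 1, and C1s2 completed the 6 nearest 0. The reverse set, DEGs of AAV8-null livers nearest 0 in AAV8-p21 livers, held Arhgap24, Lrrc56, Sh3pxd2b, Retnlg, Desi2 and Prss8, with log2 fold changes over NP of -0.05 to 0.04. Desi2, a deubiquitinating peptidase, was at 17.2, 18.3 and 29.6 CPM in NP livers, 16.4, 23.6 and 26.9 CPM in AAV8-p21 livers and 39.3, 61.1 and 52.7 CPM in AAV8-null livers at 16 dpc.

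Several lists held 0 DEGs in AAV8-p21 livers by edgeR with all libraries. Over all genes, 8.68% were higher and 7.34% lower at an unadjusted p under 0.05, DESeq2 called 2.39% higher and 1.1% lower, and limma voom called 4.71% higher and 2.89% lower. Of 25 cholesterol synthesis genes (median 0.43) 1 was higher and 1 lower at an unadjusted p under 0.05, DESeq2 called 1 and limma voom 5 higher. Of 25 glucose and glycogen genes (median 0.02) and 9 sugar transporters (median -0.15), each list had 1 higher and 1 lower unadjusted. DESeq2 called 0 in both, and limma voom called 1 glucose and glycogen gene lower. Of 19 circadian genes 2 were lower unadjusted, of 26 ER stress genes 4 were higher, of 24 interferon response genes 6 were lower and of 36 cytosolic ribosomal protein genes 2 were higher (median 0.06). DESeq2 called 1 ER stress gene higher and 0 circadian, interferon and ribosomal genes. For limma voom 2 circadian genes were higher, 4 ER stress genes higher and 1 lower, and 0 interferon and 0 ribosomal genes were called. The ER stress list held 2 rises and 0 falls without NP replicate 1 (median 1.31, against 0.38 with it) and 2 and 1 without AAV8-p21 library 4 as well. The interferon median was -0.45 with all libraries, 0.06 without NP replicate 1 and 0.45 without both, so its sign rests on NP replicate 1. The sugar transporter median turned to 0.03 without NP replicate 1, and the glucose and glycogen median to -0.03.

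Of 12 Kupffer, 12 stellate, 6 bile duct, 8 lymphocyte, 4 neutrophil genes and 1 exocrine pancreas gene, 0 were DEGs by edgeR, against an unadjusted p under 0.05 in 0, 1, 0, 0, 1 and 0 genes. DESeq2 called 0 in each, and limma voom called 2 stellate and 2 neutrophil genes higher, against 4.71% of all genes. Over all genes 8.68% were higher and 7.34% lower at an unadjusted p under 0.05. Summed neutrophil markers ranged from 1.828 to 4.086 CPM in NP livers and 4.089 to 8.068 CPM in AAV8-p21 livers, so the nearest livers of the groups were level. Of 5 erythroid genes 1 rose, against 2.13% of all genes. This was Alas2, the haem synthesis enzyme of red cells, from 12.1, 4.75 and 8.74 CPM to 51.6, 33 and 27.2 CPM (2.13, SE 0.33, adjusted p = 0.0019, edgeR). Summed erythroid markers went from 49.59 to 99.8 CPM in NP livers to 124.7 to 167.9 CPM, with no overlap, as in 9.95% of single genes in that direction, and the part of both cell types in other results was not tested.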

How the data were processed

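Poly(A) libraries (TruSeq Stranded mRNA, 200 ng of RNA with a RIN above 7) were sequenced as single 86-base reads. The authors deposited counts of uniquely mapped reads per GENCODE M25 protein-coding gene from HTSeq 0.12.4, after trimming (cutadapt 1.14) and alignment (HISAT2 2.1.0, build mm10), the versions being those of the submitters' processing notes. The strand setting of the counting is not given in the sources used here, so overlapping genes on opposite strands may share reads. Of 21702 genes, filterByExpr (minimum count 10) kept 12172.

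All 15 libraries were fitted in one model of 5 group means with edgeR 4.0.16 (TMM scaling, quasi-likelihood test, Benjamini-Hochberg adjustment over all genes tested, R 4.3.3). The test was also run on simulated counts in which no library stood apart, so that run does not cover the libraries that did here. Columns of the AAV8-p21 livers at 16 dpc are numbered 1, 3 and 4 in the table and were used as replicates with no matching label number. Alternatives used DESeq2 1.42.0, limma 3.58.1, other filters, other scaling and left-out libraries. Gene positions came from GENCODE M21 (GRCm38) and promoters from RefSeq, which held 9763 of the 12172 genes. Counting intervals cover counting error only. Genes and lists were chosen with earlier results of these data known. Named genes were Cdkn1a, the 4 genes the study picked, the 10 largest rises and falls among DEGs whose groups did not overlap with a mean of at least 1 CPM in the higher group, up to 4 DEGs per list by adjusted p, the DEGs between viruses at 16 dpc, and 6 DEGs of each comparison over NP nearest 0 in the other. Bcl6, C9, Cyp7a1, Hamp and Socs2 and the neighbours of C1s2 were added after their values were seen. Of the 6 motifs searched, 2 are reported here. Some genes that met these rules are not reported here.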

Additional observations from a re-analysis of the deposited data

How the results depend on the processing

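The 374 DEGs between AAV8-p21 livers at 16 dpc and NP livers became 370 with DESeq2 size factors, 414 with no filter, 285 when each library had to hold 10 or more counts, 283 with edgeR on the compared groups alone, 561 with DESeq2 on all 15 libraries, 574 with DESeq2 on the compared groups alone and 925 with limma voom, of which 61.9% were higher against 69.3% of the 374. Leaving out 1 library gave 192 to 403, with 77.7% higher without AAV8-p21 library 3 and 77.6% without library 4. The 598 DEGs of AAV8-null 16 dpc over NP livers became 382 with the compared groups alone and 338 to 604 with 1 library left out, the 658 of AAV8-null 16 dpc over 8 dpc became 316 with the compared groups alone, and the 9 between viruses at 16 dpc became 21 with no filter, 99 with DESeq2, 5 with the compared groups alone and 3 to 35 with 1 library left out. No paired analysis was possible because the numbers of the AAV8-p21 16 dpc columns do not match the labels. For AAV8-null 16 dpc over NP livers the replicate block gave 549 DEGs against 584 without it in the same 12 libraries. Same-numbered deviations correlated at 0.472, 0.318 and -0.05, and those of different numbers at -0.439 to 0.357. With 3 livers a group these values cannot settle whether the numbers pair the livers.

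Of 94 named genes 81 were DEGs, of which 41 stayed so in all 6 fits with 1 library left out and 40 did not. Some named genes that were not DEGs changed sign. Arhgap24 was at 0.003385 with DESeq2 size factors, 0.001884 with DESeq2, 0.325 with limma voom, 0.006696 with DESeq2 on the compared groups and 0.4195 without NP replicate 1 and AAV8-p21 library 4, a setting chosen after seeing the data. Lrrc56 was at 0.005069, 0.003109, 0.01945 and 0.01021 under the first 4 of these. Pdk4 was at 0.01195, Retnlg at -0.8616 and Desi2 at -0.007745 with limma voom, and Sh3pxd2b was at 0.006294 with DESeq2 on the compared groups. Without both libraries Retnlg was at -1.088, Desi2 at -0.257 and Prss8 at 0.1331. With 1 library left out, Slc45a3 ranged from -0.6314 to 0.02944, Arhgap24 from -0.2447 to 0.2721, Lrrc56 from -0.1386 to 0.2425, Sh3pxd2b from -0.2616 to 0.279, Retnlg from -0.7093 to 0.4403, Desi2 from -0.1174 to 0.3278 and Prss8 from -0.6498 to 0.2797. The cause of these changes was not tested. With 3 livers a group, genes of few reads have wide intervals.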
